A study of Mus musculus with 18 samples.

Results

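The nuclear genes for subunits of the mitochondrial respiratory chain and the ATP synthase were examined in cells of the mouse small intestinal crypt that had been separated by a fluorescent reporter. Members were the genes with a single array symbol that begins with Nduf followed by a subunit letter and a number, Sdh followed by a to d, Uqcr, Cox4 to Cox8, or Atp5. This gave 81 of the 19938 genes measured, namely 33 genes of complex I, 4 of complex II, 8 of complex III, 19 of complex IV and 17 of complex V. Ndufa4 and its relative Ndufa4l2 were counted with complex IV, where the Ndufa4 protein resides. The rule also takes Cox7a2l, which encodes a factor linked to supercomplexes, in which complexes such as III and IV are joined, rather than a subunit.

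The crypts came from C57Bl6/J mice that were 4 months old and had the genotype FltpZV/+, so that every gate, the negative one included, carried 1 Flattop-Venus reporter allele. Single crypt cells were sorted by Venus signal into negative, low and high gates, with 2 arrays for each gate and a pool of 2 animals behind each array. The labels do not say that replicates were separate cultures or sorts, or that gates of 1 replicate number shared animals, so p-values measure only the spread between these arrays, which may be technical. The other 12 samples of the series, sorted from a lineage-tracing line, were not analysed here.

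The respiratory chain passes electrons from NADH through complex I, and from succinate through complex II, to ubiquinone, then through complex III and cytochrome c to complex IV, which reduces oxygen. The proton gradient built on the way drives the ATP synthase, complex V. Most subunits are encoded in the nucleus, translated in the cytosol and imported, while a small core is encoded by mitochondrial DNA. In the intestinal crypt, dividing progenitors, their absorptive and secretory descendants and Paneth cells are known to differ in how much they rely on mitochondrial respiration.

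Values were log2 RMA levels, on which a difference of 1 is a 2-fold difference, and a level of 4.23 was taken as background. Array medians over all probe sets lay between 4.54 and 4.74. The number of arrays limits the precision, and so does the spread within the high gate. The 2 arrays of the high gate were the least alike (Pearson r across genes 0.946, against 0.981 in the negative and 0.975 in the low gate). High replicate 2 had the narrowest spread of gene levels (interquartile range 2.14, against 2.45 to 2.80 on the others) and 69.4% of genes above background (61.3% to 65.4% on the others). The transcript of the reporter's own gene, Cfap126 (Flattop), read 5.39 and 4.79 in negative, 5.16 and 6.13 in low and 5.15 and 5.0 in high cells, with no called difference from negative cells (limma adjusted p = 0.528 and 0.983). Of the member genes, 76 lay above background on all 6 arrays and 79 on average. The 13 genes of the respiratory chain encoded by mitochondrial DNA were not analysed here.

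Subunit genes of all 5 complexes read lower in cells with reporter signal than in cells without it. In low against negative cells 16 of 81 members fell (19.8%, where 2.54% of all genes were called lower, 3.42% higher and 5.96% in either direction), and in high against negative cells 13 of 81 fell (16%, against 3.35% of all genes lower, 1.36% higher and 4.71% in either direction). A gene was called at a limma adjusted p under 0.05 over all 19938 genes. The called decreases ranged from 1.76-fold to 3.05-fold in low cells and from 1.88-fold to 3.53-fold in high cells. No member was called higher in either comparison, and none was higher at an unadjusted p under 0.05, whereas 44 and 58 were lower at that level. Fewer cells of a type and less RNA per cell cannot be told apart in these sorted bulk samples.

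Most members that missed the threshold also lay on the lower side. The fitted difference was below 0 for 77 of 81 members in low cells and for 75 of 81 in high cells, beside 54.9% and 40.7% of all genes. The median difference was -0.75 in low and -0.77 in high cells, while the median over all genes was -0.03 and 0.10. Both low arrays read below both negative arrays for 73 members (28.5% of all genes), and both high arrays did so for 72 (22.4% of all genes). Both negative arrays stood above all 4 reporter-positive arrays for 68 of 81 members (84.0%), and for 2552 of all genes (12.8%). The 2 comparisons share the negative arrays, so they do not count as separate evidence.

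The calls depended on having both negative arrays. Without negative replicate 1, and without negative replicate 2, limma called no member in either comparison. Calls over all genes also dropped, from 507 lower to 39 and 39 in low cells and from 667 lower to 2 and 1 in high cells. At an unadjusted p under 0.05, 35 and 30 members were then lower in low cells and 41 and 37 in high cells. Without low replicate 1 or low replicate 2, 3 and 1 members were called in low cells. Without high replicate 1, 26 members were called lower and 1, Ndufa6, higher in high cells, where calls over all genes went from 667 lower and 272 higher to 1318 lower and 601 higher. The medians moved less. When 1 array was left out they lay between -0.75 and -0.70 in low and between -0.84 and -0.71 in high cells. With the arrays set to 1 common distribution by quantile normalization they were -0.60 in low and -0.44 in high cells, with 6 and 3 members called. That setting also turned the balance of all calls in high cells from 667 lower and 272 higher to 297 lower and 324 higher.

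Level alone was looked at by taking the 1405 genes with a mean over 8, among them 68 members. In these genes the median difference was -0.21 in low and -0.43 in high cells, with 7.54% and 10% called lower. For the 68 members the medians were -0.80 and -0.83, with 16 (23.5%) and 13 (19.1%) called lower. A difference below 0 was found for 918 and 1033 of the 1405 genes, and for 67 and 68 of the 68 members. Arrays lay below both negative arrays without overlap for 694 and 767 of the 1405 genes. The same held for 65 and 66 of the 68 members. On the deposited values the gap between the members and all genes of that level was thus narrower than the gap to all genes measured. After quantile normalization the medians of the 68 members were -0.67 and -0.50, and those of the 1405 genes -0.10 and -0.12. Those of the 81 members were then -0.60 and -0.44, and those of all genes -0.03 and 0.02. The gap was then still narrower in high cells but not in low cells.

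**Figure D1:**
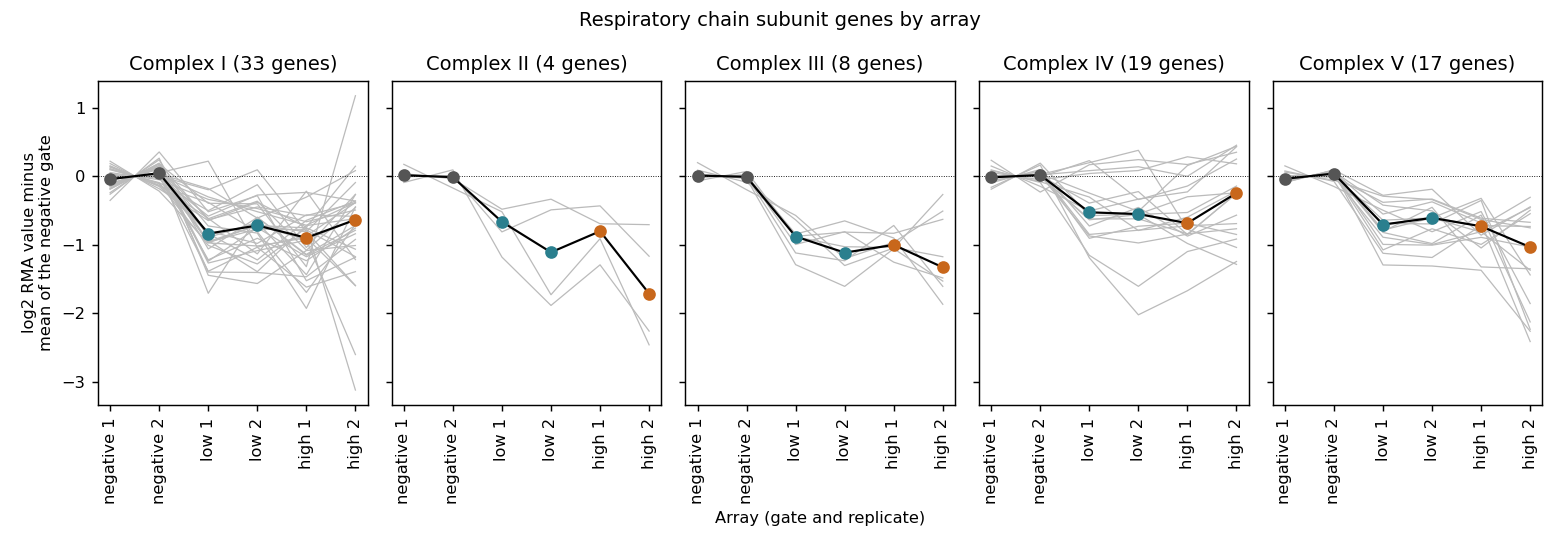
Level of each of the 81 subunit genes on the 6 arrays, as the log2 RMA value minus the mean of that gene's 2 negative arrays, in a panel for each complex. Grey lines are genes, and coloured points joined by a black line are the medians over the genes of a complex. In each complex the medians of the 4 low and high arrays lie below those of the 2 negative arrays, and some complex I lines part widely on high replicate 2.

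High and low cells themselves differed in 1 member. Cox7a2l was called lower in high than in low cells (1.23% of members, where 3.89% of all genes were called lower, 1.01% higher and 4.91% in either direction, and 5.2% of genes with a mean over 8 were called lower). Of the 81 members, 43 had a difference below 0 (38.3% of all genes) and 16 had both high arrays below both low arrays (20.4% of all genes). The median difference was -0.07, beside 0.13 for all genes. Limma called no member higher, and at an unadjusted p under 0.05 there were 5 members lower and 3 higher. The median difference between these gates turned to 0.08 after quantile normalization, so it has no settled direction. Of the 23 members called against negative cells in at least 1 comparison, 6 were called in both (Ndufv2, Ndufb6, Uqcrc1, Uqcrq, Uqcr11 and Atp5o), 10 in low cells alone and 7 in high cells alone. With the exception of Cox7a2l, a call in 1 gate and not in the other was not matched by a called difference between those gates.

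Promoter sequence is described for these members, and its part in the differences was not tested. RefSeq start sites of GRCm38.p6 gave 71 promoters, each from 250 bases before to 50 bases after the start, for 66 of the 81 genes. Motifs were searched on both strands as exact letters. CGGAAG, the core bound by GABP and other ETS factors, stood in 40.8% of member promoters, against 16.9% of all promoters and 27.8% of the promoters of genes above background here. GCATGCG, the core of the NRF1 site, stood in 15.5%, against 3.58% and 5.77%, and ATGGCGG, the YY1 core, in 15.5%, against 4.05% and 7.17%. AAGGTCA, an estrogen-related receptor half-site, stood in 9.86%, against 4.72% and 3.46%, and CCAAT in 42.3%, against 37.4% and 36.8%. None of the 5 motifs was in 16 member promoters. The 16 promoters of members called lower in low cells were not richer throughout: 8 (50%) held the GABP core, 2 (12.5%) the NRF1 core, 1 (6.25%) the YY1 core, 3 (18.8%) CCAAT and none the receptor half-site. A match describes letters in the window and not a bound site.

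The promoters of 7 members with large or contrasting changes are shown with motif letters in capitals, each 5′ to 3′ on the strand of its gene. Uqcrc1 and Uqcr11 fell in both comparisons, Ndufs8 had the smallest adjusted p of the members in low cells, Sdhb fell in high cells, and Cox7a2l alone differed between high and low cells. Atp5d, which had the largest called fall, and Atp5o, which fell in both comparisons, were picked because their windows hold none of the 5 motifs. The Uqcrc1 window, chr9:108936398-108936697 on the plus strand, holds the NRF1 core, whose overlapping letters match on both strands. The Uqcr11 window, chr10:80406772-80407071 on the minus strand, holds the GABP and NRF1 cores. The Ndufs8 window, chr19:3912725-3913024 on the minus strand, holds 2 GABP cores and 3 CCAAT boxes. The Sdhb window, chr4:140961021-140961320 on the plus strand, holds the NRF1 core, a CCAAT box read on the opposite strand, and the GABP core. The Atp5d window, chr10:80142025-80142324 on the plus strand and 1 of 2 for that gene, the Atp5o window, chr16:91931581-91931880 on the minus strand, and the Cox7a2l window, chr17:83514284-83514583 on the minus strand, hold none.
Uqcrc1: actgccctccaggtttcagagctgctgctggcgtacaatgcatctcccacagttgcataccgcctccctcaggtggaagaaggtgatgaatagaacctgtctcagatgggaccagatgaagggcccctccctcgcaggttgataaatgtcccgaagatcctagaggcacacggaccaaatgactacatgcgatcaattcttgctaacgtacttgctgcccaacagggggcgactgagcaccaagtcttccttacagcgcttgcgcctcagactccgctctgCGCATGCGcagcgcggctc
Uqcr11: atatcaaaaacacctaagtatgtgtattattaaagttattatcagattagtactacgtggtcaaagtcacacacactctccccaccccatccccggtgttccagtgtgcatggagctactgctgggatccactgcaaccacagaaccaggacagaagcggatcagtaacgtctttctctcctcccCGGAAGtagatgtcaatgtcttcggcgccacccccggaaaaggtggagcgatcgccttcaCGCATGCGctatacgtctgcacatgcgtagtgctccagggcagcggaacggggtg
Ndufs8: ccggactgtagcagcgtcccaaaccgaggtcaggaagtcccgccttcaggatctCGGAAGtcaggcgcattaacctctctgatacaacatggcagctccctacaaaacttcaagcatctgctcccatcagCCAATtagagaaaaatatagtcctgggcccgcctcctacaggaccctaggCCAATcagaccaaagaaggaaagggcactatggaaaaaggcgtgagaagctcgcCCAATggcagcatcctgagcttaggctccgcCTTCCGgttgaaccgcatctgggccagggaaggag
Sdhb: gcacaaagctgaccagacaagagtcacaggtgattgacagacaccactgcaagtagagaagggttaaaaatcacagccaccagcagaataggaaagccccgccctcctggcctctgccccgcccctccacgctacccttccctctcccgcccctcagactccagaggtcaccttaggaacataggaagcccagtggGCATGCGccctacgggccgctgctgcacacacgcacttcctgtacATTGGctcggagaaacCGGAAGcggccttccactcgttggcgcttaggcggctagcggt
Atp5d: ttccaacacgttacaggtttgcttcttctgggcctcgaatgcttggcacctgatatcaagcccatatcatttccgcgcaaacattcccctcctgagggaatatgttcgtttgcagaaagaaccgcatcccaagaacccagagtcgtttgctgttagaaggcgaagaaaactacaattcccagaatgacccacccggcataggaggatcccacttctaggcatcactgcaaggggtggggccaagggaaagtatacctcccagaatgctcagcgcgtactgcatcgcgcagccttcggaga
Atp5o: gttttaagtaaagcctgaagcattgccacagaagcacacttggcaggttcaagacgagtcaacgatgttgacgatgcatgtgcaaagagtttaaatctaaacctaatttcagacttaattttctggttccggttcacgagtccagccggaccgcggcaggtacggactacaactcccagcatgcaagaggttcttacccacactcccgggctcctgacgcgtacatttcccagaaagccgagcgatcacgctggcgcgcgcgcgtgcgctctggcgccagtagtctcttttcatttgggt
Cox7a2l: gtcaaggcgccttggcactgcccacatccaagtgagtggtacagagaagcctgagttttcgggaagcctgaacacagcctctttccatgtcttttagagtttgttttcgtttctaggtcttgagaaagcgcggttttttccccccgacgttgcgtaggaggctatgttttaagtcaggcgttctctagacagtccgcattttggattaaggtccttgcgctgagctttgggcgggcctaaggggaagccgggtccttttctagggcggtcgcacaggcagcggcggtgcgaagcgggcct

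Counts by complex are to be read beside all genes, of which 2.54% were called lower in low and 3.35% in high cells. Both arrays of the gate lay below both negative arrays for 28.5% and 22.4% of all genes. Most members read at a higher level than most genes. Among the 1405 genes with a mean over 8, 7.54% and 10% were called lower. Of these genes, 694 and 767 lay below both negative arrays without overlap. Complex I, the NADH dehydrogenase, had 7 of 33 members lower in low cells and 3 of 33 in high cells, with medians of -0.83 and -0.85. The high-cell share was near that of genes with a mean over 8. Its core subunits carry the flavin and iron-sulfur clusters that pass electrons to ubiquinone, and 3 of the 6 core genes were called in low and 1 in high cells (medians -1.03 and -1.12). Of the 27 accessory genes, 4 and 2 were called (medians -0.78 and -0.77), in high cells no larger a share than among genes with a mean over 8. Ndufs8, an iron-sulfur subunit of the ubiquinone-reducing arm, read 9.16 and 9.68 in negative, 7.97 and 7.85 in low and 8.33 and 8.41 in high cells. Both reporter-positive gates lay below the negative arrays without overlap. It fell 2.84-fold in low cells (log2 difference -1.51 ± 0.23 SE, limma adjusted p = 0.0139), while the difference in high cells was -1.05 ± 0.23 (adjusted p = 0.0508). Ndufv2, an iron-sulfur subunit of the NADH arm, read 8.96 and 9.34, then 7.75 and 7.75, then 7.68 and 8.23. It fell in both comparisons, by 1.40 ± 0.25 in low cells (adjusted p = 0.0241) and by 1.2 ± 0.25 in high cells (adjusted p = 0.0467). Ndufs3, of the ubiquinone-reducing arm, read 8.99 and 9.08 in negative and 7.82 and 8.13 in low cells and fell by 1.06 ± 0.23 (adjusted p = 0.0466). Ndufv1, the flavin-binding subunit that receives electrons from NADH, was not called (adjusted p = 0.101 and 0.0576), although its 4 reporter-positive arrays, at 7.06 to 7.76, lay below its negative ones at 8.88 and 8.44.

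Among the accessory subunits, Ndufb6 of the membrane arm had the clearest separation. Its arrays read 9.84 and 9.85 in negative, 8.45 and 8.80 in low and 8.22 and 8.45 in high cells. It fell 2.32-fold in low (adjusted p = 0.0204) and 2.84-fold in high cells (adjusted p = 0.0174). Ndufc1 fell by 1.17 ± 0.21 in low cells (adjusted p = 0.0261), Ndufa12 by 1.03 ± 0.22 (adjusted p = 0.0446) and Ndufa5 by 0.89 ± 0.20 (adjusted p = 0.0479). The last pair belong to the matrix arm, and their differences in high cells, -0.50 and -0.58, missed the threshold. Ndufs5 gave the opposite picture and was called in high cells alone. It read 9.48 and 10.19 in negative, 9.31 and 9.55 in low and 8.31 and 8.65 in high cells, a fall of 1.35 ± 0.28 in high cells (adjusted p = 0.0463) beside -0.40 in low cells. Its negative arrays were 0.71 apart, the widest gap among members in that gate, and the difference between high and low cells, -0.95 ± 0.28, was not called (adjusted p = 0.116).

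The smallest difference of complex I in low cells was that of Ndufa13, an accessory subunit. It read 9.16 and 9.17 in negative and 8.97 and 9.26 in low cells, a difference of -0.05 ± 0.27 that turned to 0.07 after quantile normalization. Ndufa11, an accessory membrane subunit and the complex I gene with the highest mean, read 10.40 and 10.47 in negative, 10.25 and 9.82 in low and 10.13 and 10.51 in high cells. Its difference in high cells, -0.11 ± 0.23, turned to 0.23 after quantile normalization. In all, 30 of the 33 genes had low arrays below the negative arrays without overlap, and 30 of 33 did so for the high arrays.

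Complex II, succinate dehydrogenase, also serves the tricarboxylic acid cycle and is the only complex whose 4 subunits are all encoded in the nucleus. Limma called 1 of the 4 genes in high cells and none in low cells, where 1 was lower at an unadjusted p under 0.05. The median differences were -0.89 in low and -1.24 in high cells, and each of the 4 genes had both gates below the negative arrays without overlap. Sdhb, the iron-sulfur subunit, read 10.09 and 10.27 in negative, 9.0 and 8.29 in low and 8.88 and 7.92 in high cells. It fell 3.43-fold in high cells (log2 difference -1.78 ± 0.37, adjusted p = 0.0470), and the difference in low cells was -1.53 ± 0.37 (adjusted p = 0.0636). Sdhc, a membrane anchor, read 10.32 and 10.25, then 9.80 and 9.95, then 9.59 and 9.58. Its arrays agreed closely within each gate, yet its differences of -0.41 and -0.70 were not called. Sdhd, the other anchor, had differences of -1.13 in low and -1.69 in high cells with wide gaps between the arrays of both gates (8.88 and 7.67 in low, 8.49 and 6.94 in high cells).

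Complex III, which hands electrons from ubiquinol to cytochrome c, had the largest share of called genes. Of its 8 members 4 fell in low and 3 in high cells, with medians of -0.93 and -1.14, and no member of it overlapped with negative cells in either gate. Uqcrc1, a core protein, read 9.91 and 9.84 in negative, 8.59 and 8.27 in low and 8.82 and 8.35 in high cells. It fell 2.73-fold in low cells (-1.45 ± 0.23, adjusted p = 0.0171) and 2.45-fold in high cells (-1.30 ± 0.23, adjusted p = 0.0314). Uqcr11, a small subunit, read 10.53 and 10.57, then 9.55 and 9.74, then 9.29 and 9.06. It fell by 0.90 ± 0.19 in low (adjusted p = 0.0410) and by 1.37 ± 0.19 in high cells (adjusted p = 0.0179), and a second, dimmer probe set of the gene differed by -1.01 and -2.10. Uqcrq, another small subunit, fell by 0.96 ± 0.18 and by 1.11 ± 0.18 (adjusted p = 0.0302 and 0.0256). Uqcr10 fell by 0.85 ± 0.18 in low cells (adjusted p = 0.0436). The hinge protein gene Uqcrh read 11.57 and 11.58 in negative, 10.73 and 10.92 in low and 10.67 and 9.70 in high cells. Its difference of -1.39 ± 0.32 in high cells was not called (adjusted p = 0.0601), and its 2 high arrays were 0.97 apart. Uqcrfs1, the Rieske iron-sulfur protein, showed differences of -0.89 and -0.74 that were not called either.

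Complex IV, cytochrome c oxidase, was divided into 10 genes of subunits found in most tissues, 8 tissue-restricted isoform genes and Cox7a2l. The 10 common genes each had a difference below 0 in both gates, with medians of -0.61 and -0.72, and 2 were called in low and 1 in high cells. Their high-cell share was no larger than that of genes with a mean over 8. Cox5a read 10.29 and 10.11 in negative, 9.05 and 8.59 in low and 9.10 and 9.28 in high cells. It fell 2.61-fold in low cells (-1.38 ± 0.22, adjusted p = 0.0173), and in high cells the difference was -1.01 ± 0.22 (adjusted p = 0.0539). Cox5b read 11.46 and 11.60 in negative and 10.68 and 10.74 in low cells and fell by 0.82 ± 0.18 (adjusted p = 0.0446). Cox4i1, the common form of the subunit that binds ATP as an allosteric regulator, was called in high cells alone. It read 10.95 on both negative arrays, 10.31 and 10.39 in low and 9.97 and 9.66 in high cells, a fall of 1.13 ± 0.19 in high (adjusted p = 0.0266) and a difference of -0.60 ± 0.19 in low cells (adjusted p = 0.142). Among the rest, Cox6b1 read 12.43 and 12.46 in negative, 11.92 and 11.89 in low and 11.92 and 12.30 in high cells, differences of -0.54 and -0.34. Cox6a1, Cox7a2, Cox7b, Cox8a and Ndufa4 had differences from -0.55 to -0.92 in low cells and from -0.41 to -0.80 in high cells, none of them called.

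Among the tissue-restricted isoform genes Cox7a1 was the one called. Cox6b2 also had its low arrays (4.29 and 4.32) and high arrays (4.57 and 4.63) below both negative arrays (4.68 and 5.06), with differences of -0.57 and -0.27 that were not called (adjusted p = 0.185 and 0.451). Low arrays lay below the negative ones without overlap for 4 of the 8 genes, and high arrays for 2, beside 28.5% and 22.4% of all genes. Over the 8 genes the median difference was -0.22 in low and 0.16 in high cells. Cox7a1, the heart and muscle form of subunit 7a, read 9.21 and 9.54 in negative, 8.19 and 7.35 in low and 7.71 and 8.13 in high cells, well above background throughout. It had the largest fall of any member in low cells, 3.05-fold (-1.61 ± 0.32, adjusted p = 0.0341), and a difference of -1.46 ± 0.32 in high cells that missed the threshold (adjusted p = 0.0527). Cox7a2, the common form of that subunit, read 10.04 and 9.88, then 9.65 and 9.17, then 9.36 and 9.74. Both isoform genes thus had low and high arrays below the negative ones. The other 7 restricted genes read between 3.23 and 5.82, Cox6a2 highest and the rest nearer to background. Cox6a2 and Cox6b2 lay above it on all 6 arrays, Cox7b2 and Cox8b lay below it on all 6 arrays, Cox8c and Ndufa4l2 lay above it on 4 and Cox4i2 on 5. Cox6a2 read 5.59 and 5.56, then 5.80 and 5.23, then 5.43 and 5.82. Its differences of -0.06 and 0.05 changed sign when single arrays were left out. Cox4i2, a form linked to low oxygen, read 4.57 and 4.64 in negative, 4.36 and 4.09 in low and 4.76 and 5.04 in high cells, and high minus low was 0.68 ± 0.20 (adjusted p = 0.120). Ndufa4l2 differed by -0.42 in low cells, and Cox8b and Cox8c by 0.20 and 0.11, none of them called. The sign of Cox7b2 in low cells, 0.06, turned to -0.02 when arrays were centred on their medians, and that of Ndufa4l2 in high cells, 0.10, to -0.04 after quantile normalization.

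**Figure D2:**
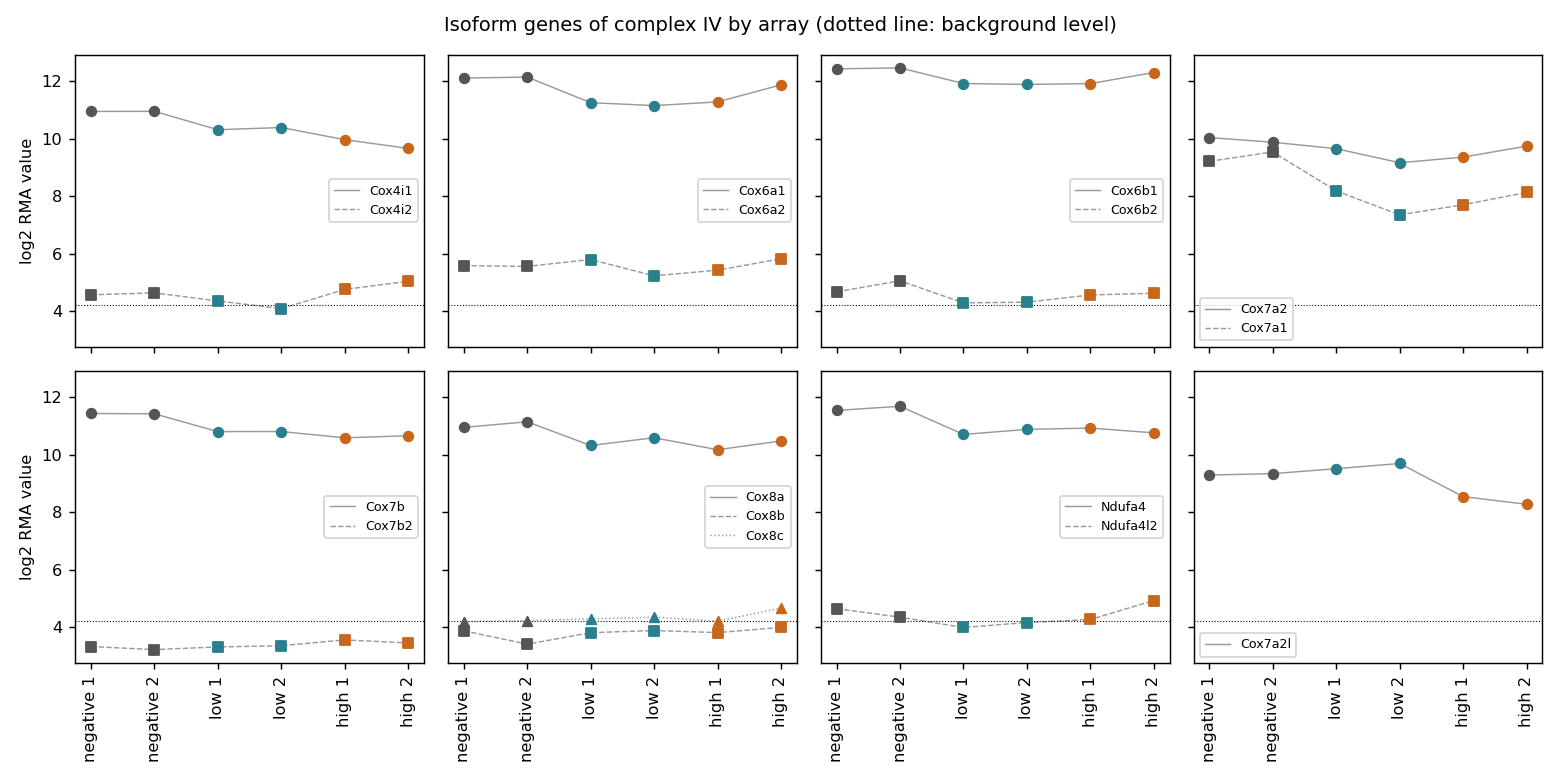
Log2 RMA values of the complex IV isoform genes on each of the 6 arrays, with the common gene as circles on a solid line, its restricted relatives on broken lines, and the background level of 4.23 dotted. Each line is to be read along the arrays only, since levels of different probe sets are not comparable. The common genes and Cox7a1 are highest on the negative arrays, and Cox7a2l drops on the 2 high arrays alone.

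Cox7a2l, which encodes a factor linked to supercomplexes and related to the 7a subunits, followed neither group. Its protein and the supercomplexes were not measured here. It read 9.30 and 9.34 in negative, 9.52 and 9.70 in low and 8.55 and 8.28 in high cells. The 3 gates did not overlap: low cells stood highest and high cells lowest. High cells were lower than low cells by 1.19 ± 0.19 (2.29-fold, adjusted p = 0.0197) and lower than negative cells by 0.91 ± 0.19 (adjusted p = 0.0497), while low minus negative was 0.29 ± 0.19 (adjusted p = 0.550). A second probe set of the gene read 9.0 and 9.01 in negative, 9.44 and 9.45 in low and 8.61 and 8.84 in high cells, the same order with a high minus low difference of -0.72. Its differences from negative cells were 0.44 in low and -0.28 in high cells, beside 0.29 and -0.91 on the probe set used. The call between high and low cells was lost without low replicate 1, low replicate 2 or high replicate 2 (adjusted p from 0.0522 to 0.125), and with the arrays of those 2 gates alone (adjusted p = 0.0627). The call against negative cells was lost in 10 of 12 alternatives (adjusted p from 0.0533 to 0.248).

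Complex V, the ATP synthase, had 2 of 17 members lower in low and 4 in high cells, with medians of -0.65 and -0.88, and every member had both gates below the negative arrays without overlap. In the catalytic F1 head and its rotating stalk, 3 of 5 genes fell in high cells (median -1.19). None of the 5 was called by limma in low cells (median -0.65), where 3 were lower at an unadjusted p under 0.05. Atp5d, the delta subunit of the rotating stalk, read 10.91 and 11.02 in negative, 9.67 and 9.65 in low and 9.59 and 8.70 in high cells. It had the largest called fall of any member, 3.53-fold in high cells (-1.82 ± 0.30, adjusted p = 0.0246), beside -1.30 ± 0.30 in low cells (adjusted p = 0.0534). Atp5c1, the gamma subunit, read 10.80 and 10.98, then 10.08 and 10.43, then 9.56 and 9.53. It fell by 1.34 ± 0.20 in high cells (adjusted p = 0.0209), and high minus low was -0.71 ± 0.20 (adjusted p = 0.108). Atp5a1, the alpha subunit, read 11.25 and 11.23, then 10.35 and 10.24, then 10.43 and 9.87, and fell by 1.09 ± 0.23 in high cells (adjusted p = 0.0493). The epsilon subunit gene Atp5e had the smallest difference of the complex in low cells, -0.23 ± 0.21, with 11.53 and 11.71 in negative against 11.34 and 11.43 in low cells.

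The peripheral stalk, which holds the head still against rotation, gave the low-cell calls of complex V. Atp5pb, subunit b, read 10.16 and 10.01 in negative, 8.96 and 8.90 in low and 9.37 and 9.35 in high cells. It fell 2.23-fold in low cells (-1.16 ± 0.18, adjusted p = 0.0150), and the difference in high cells was -0.73 ± 0.18 (adjusted p = 0.0708). Atp5o, the oligomycin sensitivity conferring protein, read 11.17 and 11.29, then 10.24 and 10.23, then 10.34 and 10.20. Its reporter-positive arrays lay within 0.14 of each other, and it fell by 1.0 ± 0.18 in low (adjusted p = 0.0245) and by 0.96 ± 0.18 in high cells (adjusted p = 0.0348). The 8 membrane-embedded Fo genes had medians of -0.67 and -0.77, and limma called none of them, although 3 in low and 8 in high cells were lower at an unadjusted p under 0.05. Atp5l, subunit g, had 6 probe sets, whose differences lay between -0.32 and -0.42 in low cells and between -0.69 and -0.96 in high cells.

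**Figure D3:**
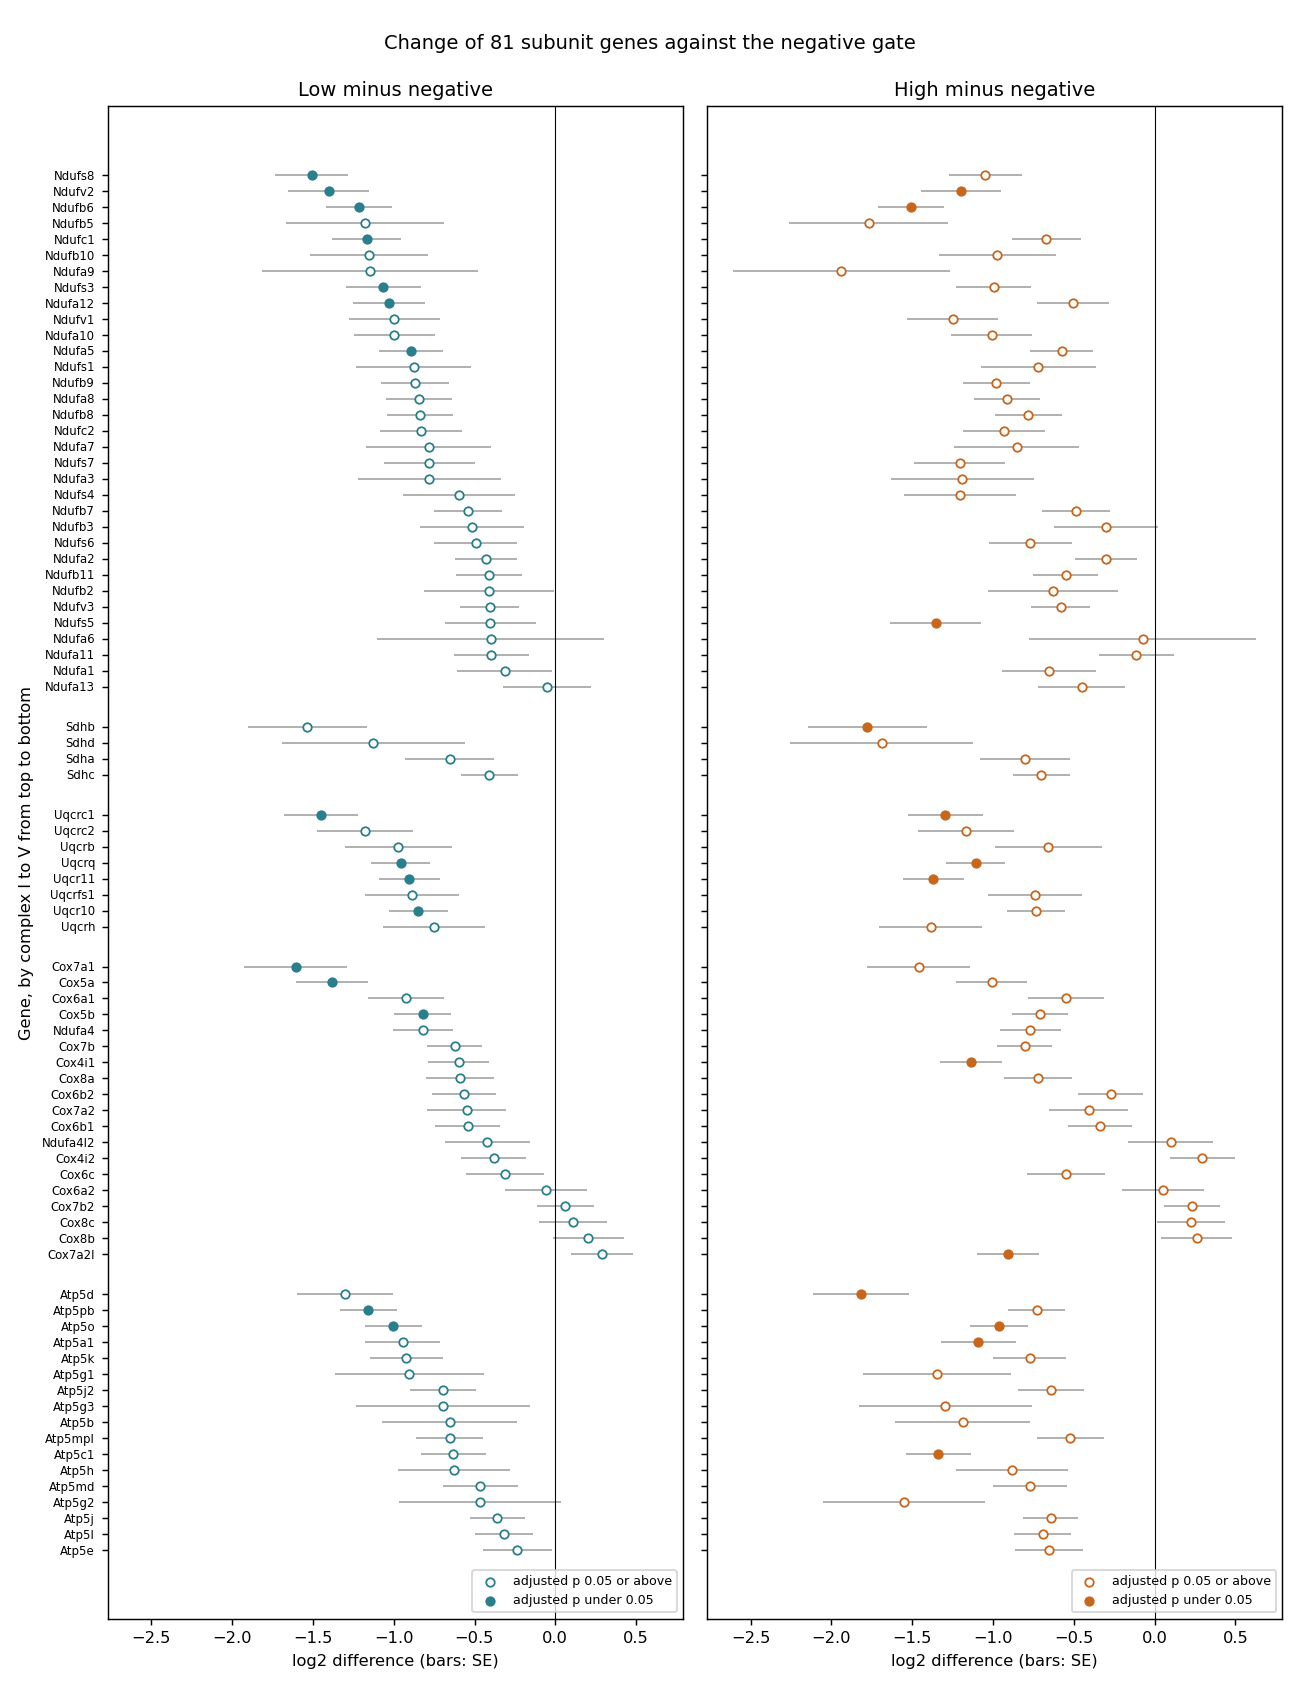
Log2 difference of each of the 81 genes from the negative gate in low cells (left) and high cells (right), ordered by complex and, within a complex, by the difference in low cells. Bars are limma standard errors, and filled points have an adjusted p under 0.05. All 16 filled points on the left and all 13 on the right lie below 0, and many open points lie at a similar distance with wider bars.

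The calls differed in how well they held. Each of the 16 calls in low cells was lost in 3 to 8 of 12 alternatives, and each of the 13 in high cells in 2 to 10. Outside the leaving out of arrays, Ndufs8, Ndufb6, Uqcrc1, Cox5a, Atp5pb and Atp5o kept their calls in low cells in every alternative, and Ndufb6 and Uqcr11 did so in high cells. Without single arrays the adjusted p of a lost low-cell call lay between 0.0503 (Ndufs8) and 0.283 (Ndufa5). The direction was steadier than the calls. Over the 11 alternatives with all 81 members, 75 to 78 lay below 0 in low cells and 72 to 78 in high cells. Among these, an intensity trend, the arrays of 2 gates only, array weights and a replicate block cannot change the fitted difference in this design. Those settings do not bear on the direction. Where a gene had several probe sets, these pointed the same way within the gene for all 16 such genes, in low and in high cells, and were lower in 15 and 16 of them.

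The gaps between replicate arrays bear on which members could be called. The median gap between the 2 arrays of a gate was 0.13 for the members in negative, 0.19 in low and 0.41 in high cells, beside 0.19, 0.20 and 0.31 for all genes. None of the 81 members was over 1 log2 unit apart in negative cells, 3 were in low cells and 11 in high cells. The following genes were picked after their values were seen. Ndufa9, Atp5g3, Atp5g2, Ndufb5, Atp5g1, Sdhd, Atp5b and Atp5h read lower on high replicate 2 than on high replicate 1, by 2.37 (Ndufa9) to 1.12 (Atp5h). Ndufa6, Ndufa3 and Ndufa7 read higher there, by 2.50, 1.48 and 1.17. Each of the 3 genes for the ring subunit c of the ATP synthase, Atp5g1, Atp5g2 and Atp5g3, is in the first group. Atp5g3 read 11.44 and 11.42 in negative, 10.74 and 10.73 in low, and 11.07 and 9.19 in high cells. Its high replicate 1 stood above the low arrays and its high replicate 2 below them, so the mean of that gate describes neither array, and the difference of -1.30 was not called (adjusted p = 0.220). Ndufa6 went the other way, with 8.56 and 8.91 in negative, 8.34 and 8.33 in low and 7.41 and 9.91 in high cells. By complex, the high arrays differed by more than 1 in 5 genes of complex I, 1 of complex II, none of complexes III and IV and 5 of complex V.

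**Figure D4:**
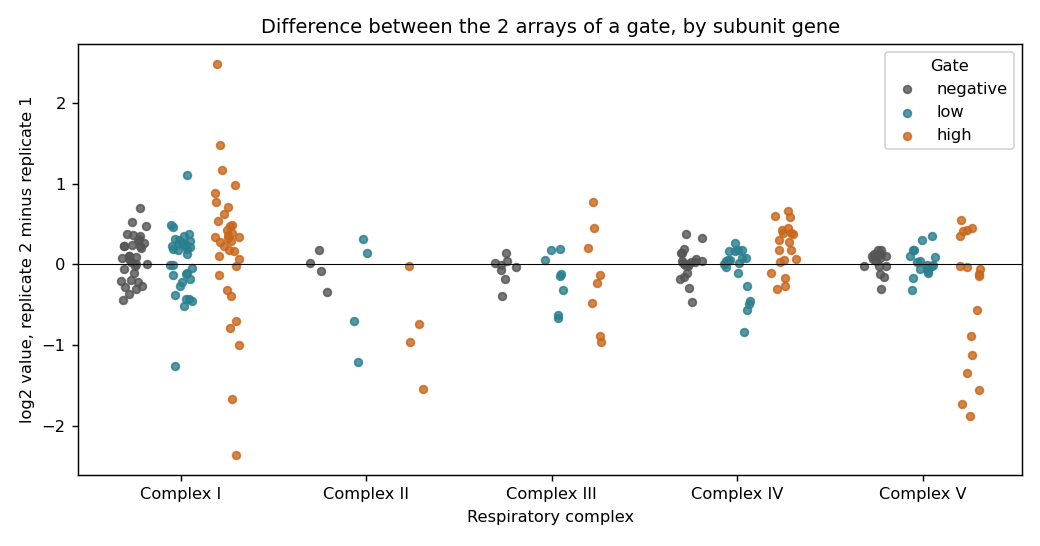
Difference between the 2 arrays of each gate, replicate 2 minus replicate 1 in log2 units, for each subunit gene, grouped by complex and coloured by gate. The negative points stay within 0.71 of 0, while the high points spread from -2.37 to 2.50 in complex I and down to -1.88 in complex V.

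Genes that work beside the subunits were read from lists in the same fit. Cyc1, cytochrome c1 of complex III, read 9.98 and 9.90 in negative, 8.14 and 8.33 in low and 8.79 and 8.31 in high cells, and fell by 1.70 ± 0.22 and by 1.39 ± 0.22 (adjusted p = 0.00847 and 0.0237). Ndufab1, the acyl carrier protein found in complex I, fell by 1.33 and 1.18 (adjusted p = 0.0209 and 0.0381). Cycs, the mobile cytochrome c, differed by -0.33 and -0.49 and was not called. Of 77 mitochondrial ribosomal protein genes, 13 fell in low (16.9%) and 16 in high cells (20.8%), beside 2.54% and 3.35% of all genes. Their medians were -0.79 and -0.72. The medians of the subunits and of this machinery, which translates the mitochondrially encoded subunits, lay within 0.05 of each other in both gates.

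Other mitochondrial lists lay on the same side of 0. Over all genes 2.54% were called lower in low and 3.35% in high cells. Among genes with a mean over 8 the shares were 7.54% and 10%. Of 19 protein import genes, 5 fell in low (26.3%) and 3 in high cells (15.8%), with a median of -0.87 in both. Timm8a1 led them and fell by 1.83 and 1.24. Of 18 genes of the tricarboxylic acid cycle and pyruvate dehydrogenase, 5 fell in low (27.8%) and 2 in high cells (11.1%). Their medians were -0.86 and -0.77. Among them Idh3a, an isocitrate dehydrogenase subunit, fell by 1.38 and 1.91. Suclg1, a succinyl-CoA ligase subunit, fell by 2.03 in high cells. Of 14 beta oxidation genes, 1 fell in low (7.14%) and 4 in high cells (28.6%), with medians of -0.69 and -1.06. The low-cell share was near that of genes with a mean over 8. Echs1 fell by 1.36 in low and Hadh by 1.71 in high cells. Of 42 assembly factor genes, which build the complexes but do not stay in them, 1 fell in low and 3 in high cells (2.38% and 7.14%, beside 2.54% and 3.35% of all genes), with medians of -0.42 and -0.66. The low-cell share was near that of all genes. They were Coa7 in low cells, by 1.49, and Taco1, Lrpprc and Atpaf2 in high cells, by 1.85, 1.25 and 1.21.

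Glycolysis genes were called in both directions in low cells and only lower in high cells. Of the 15 genes, 2 fell (13.3%) and 1 rose in low cells and 3 fell (20%) in high cells, with medians of -0.40 and -0.77. The high-cell median was close to that of the subunit genes, -0.77. Over all genes 2.54% and 3.35% were called lower. A difference below 0 was found for 12 of the 15 genes in low and 11 in high cells. Hk2, a hexokinase, read 5.88 and 5.65 in negative, 6.86 and 7.38 in low and 5.99 and 5.47 in high cells and rose by 1.36 ± 0.27 in low cells (adjusted p = 0.0341). Ldha, which turns pyruvate into lactate, fell by 1.31 and 0.99, and Pfkp, a phosphofructokinase, by 1.26 and 1.97. Pgam1 fell by 1.41 in high cells. Among 15 regulators of mitochondrial biogenesis, 2 were called in each comparison with negative cells (13.3%), all of them lower. Esrra, an orphan nuclear receptor that acts on respiratory genes, read 7.67 and 7.61 in negative, 6.39 and 5.65 in low and 6.16 and 6.37 in high cells and fell by 1.61 ± 0.27 and by 1.37 ± 0.27 (adjusted p = 0.0198 and 0.0408). The coactivator genes Ppargc1b and Ppargc1a fell by 1.84 in low cells and by 1.77 in high cells. Nrf1, Gabpa and Tfam, whose products act on subunit promoters or on mitochondrial DNA, differed by -0.51, -0.23 and -0.24 in low cells and by -0.62, -0.06 and -0.78 in high cells, none of them called.

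**Figure D5:**
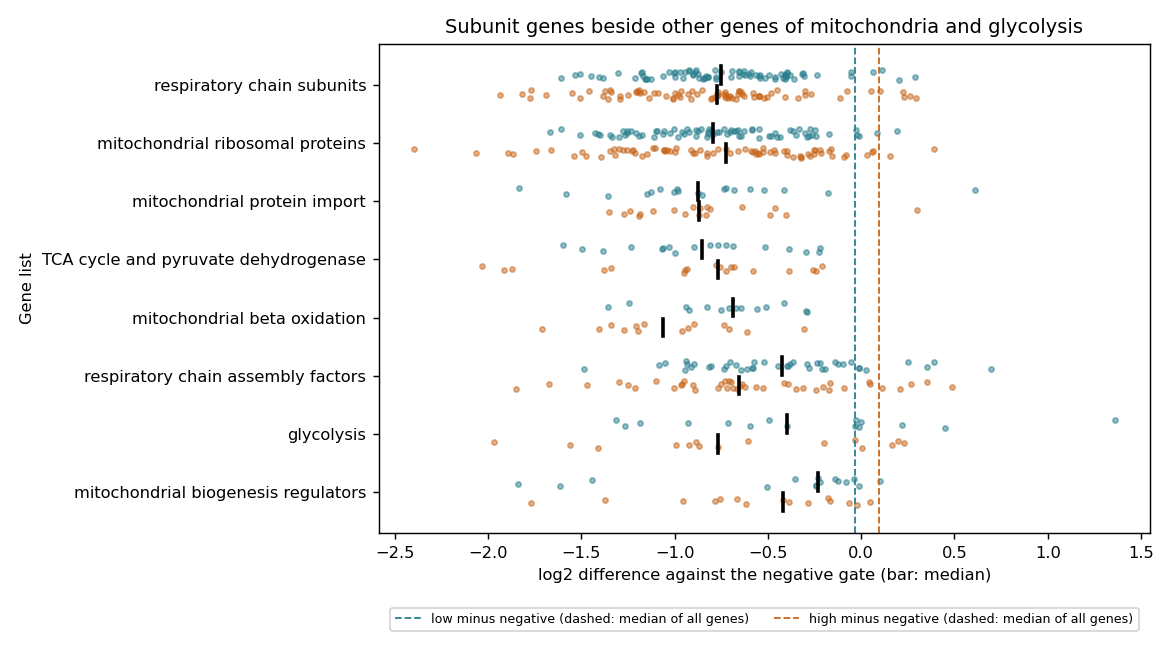
Log2 difference from the negative gate of each gene in the subunit set and in 7 further lists, in low cells (teal) and high cells (orange). Black bars are list medians, and dashed lines mark the medians of all genes, -0.03 and 0.10. The medians of each list lie to the left of both dashed lines, those of the regulators nearest to them.

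Markers of several cell types and of division also moved with the gates, and their part in the subunit differences was not tested. The levels below are log2 of the summed linear level of a list on each array. The counts are to be read beside all genes, of which 2.54% were called lower and 3.42% higher in low cells. In high cells these shares were 3.35% and 1.36%. Of 9 cell cycle markers, 9 fell in low and 6 in high cells, with summed levels of 11.02 to 11.12 in negative, 8.86 to 8.99 in low and 9.51 to 10 in high cells. Of 8 enteroendocrine markers, 8 rose in low cells, while in high cells limma called none and 6 were higher at an unadjusted p under 0.05 (8.10 to 8.33, 13.91 to 14.15 and 9.25 to 10.27). Of 7 Paneth markers, 7 rose in both (12.40 to 12.75, 14.97 to 15.10 and 15.34 to 15.57). Of 9 lymphocyte markers, 6 rose and 2 fell in low cells and 8 fell in high cells (11.96 to 12.12, 13.52 to 13.54 and 10.12 to 10.31). Of 8 myeloid and mast cell markers, 3 rose and 2 fell in low cells and 4 fell in high cells (10.27 to 10.41, 11.72 to 11.90 and 9.68 to 9.71), with Cpa3 below background on each array. Of 9 absorptive enterocyte markers, 1 fell in low and 4 in high cells (13.66 to 14.14, 12.76 to 13.67 and 12.37 to 13.02). Of 6 stem cell markers, 1 fell in low cells and 1, Lgr5, rose in high cells (11.52 to 11.63, 10.09 to 10.69 and 10.96 to 10.99). Lgr5 was the exception there, since 5 of the 6 had a difference below 0 in high cells (median -0.16). At an unadjusted limma p under 0.05, 2 were lower and 1 higher in high cells. Of 5 goblet markers, 1 fell in each (13.85 to 14.02, 12.92 to 13.10 and 13.48 to 13.68). Of 7 stroma and endothelium markers, 1 rose in low cells (8.04 to 8.09, 9.46 to 10.20 and 7.46 to 7.93), with Kdr below background on each array. Limma called none of the 5 tuft markers (7.55 to 7.82, 7.32 to 7.43 and 7.62 to 7.65), 1 of which was lower in each gate at an unadjusted p under 0.05. The 1 measured erythrocyte marker, at 3.95 to 4.92, was not called and did not reach an unadjusted p under 0.05. The labelled small intestinal crypt origin was thus met by Paneth, goblet, enterocyte and stem cell markers above background on all 6 arrays, with lymphocyte markers present as well.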

How the data were processed

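Reporter-negative, reporter-low and reporter-high crypt cells were measured on 6 arrays, 2 per gate. The deposited values are log2 expression levels that the authors made with RMA in Affymetrix Expression Console 1.3.0.187, per the submitters' processing notes. RMA corrects background, normalizes between arrays and takes logs. Differences between low values may be compressed. Columns of 12 further samples carried no values and were not analysed here. Of 35556 probe sets, 21789 had 1 symbol in the platform annotation, 1621 had several and 12146 had none listed, and 21698 of the single-symbol ones matched a RefSeq gene ID (GRCm38.p6). The probe set with the highest mean over the 6 arrays stood for a gene, giving 19938 genes.

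The background level of 4.23 is the 95th percentile of the means of 1203 olfactory, vomeronasal and trace amine receptor genes. One limma 3.58.1 model (R 4.3.3, lmFit and eBayes) of 3 gate means was fitted to all genes, with two-sided tests and Benjamini-Hochberg adjustment over 19938 genes in each of 3 comparisons; a call is an adjusted p under 0.05. The model was tested on simulated data. Tables and figures used Python 3.11.15, pandas 2.3.3, numpy 2.4.6 and matplotlib 3.10.9. The precision is limited by 2 arrays per gate, and array data give no read depth.

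Replicate numbers were not used to pair arrays, because the labels name no shared animals. The replicate differences of the gates correlated at 0.11, 0.11 and 0.086 across genes above background. Weak correlations of this kind do not show that the gates were unpaired. The alternatives tried were an intensity trend, the arrays of 2 gates only, genes above background only, the mean of all probe sets, median centring, quantile normalization, array weights, a replicate block and leaving out each array.

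Genes were named by rule: members called in any comparison; in each complex the member with the highest mean, the largest fall and the largest rise in low cells; the isoform genes of complex IV with their common partners; Cox7a2l; up to 3 called genes per pathway list and comparison; 6 regulators; and Cfap126. Members named outside it (Ndufv1, Sdhd, Uqcrfs1, Atp5l, Cycs and those with wide replicate gaps) were chosen after their values were seen. Members and lists were chosen with earlier results of these data known. Pathway and marker lists were the subunits' assembly factors, mitochondrial ribosomal proteins, protein import, tricarboxylic acid cycle, beta oxidation, glycolysis, biogenesis regulators, cytochromes and cell type markers.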

Additional observations from a re-analysis of the deposited data

How the results depend on the processing

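Counts of called subunit genes moved widely while their medians against negative cells stayed below 0 in all 12 alternatives. An intensity trend, the arrays of 2 gates only, array weights and a replicate block cannot move these medians in this design. Only the other alternatives bear on the direction. In low cells the 16 calls became 32 with the arrays of both gates alone, 6 after quantile normalization, 30 with array weights, and 0 to 3 when 1 array was left out. In high cells the 13 calls became 4, 3 and 7 under those settings, 24 with arrays centred on their medians, and 0 to 27 when 1 array was left out. Between high and low cells the 1 call became 0 with the arrays of both gates alone (limma, 3 lower and 1 higher at an unadjusted p under 0.05) and 0 to 10 when 1 array was left out. With the replicate number as a block 13, 17 and 1 members were called, within 1.5 times of the counts without the block.

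The median of -0.75 in low cells became -0.83 with centred arrays and -0.60 after quantile normalization, and the -0.77 in high cells became -0.86 and -0.44. The median between high and low cells changed sign, to 0.083 after quantile normalization, and lay between -0.10 and 0.027 when 1 array was left out. After quantile normalization 616 genes were called lower and 326 higher in high than in low cells, against 776 and 202 before.

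Single genes near 0 or near background changed sign. In low cells Cox7b2 turned to -0.018 with centred arrays and Ndufa13 to 0.065 after quantile normalization. When 1 array was left out, Cox6a2 lay between -0.34 and 0.23, Cox8b between -0.028 and 0.44 and Ndufa13 between -0.20 and 0.093. In high cells Cox6a2 turned to -0.039 with centred arrays, Ndufa11 to 0.23 and Ndufa4l2 to -0.039 after quantile normalization. When 1 array was left out, Cox6a2 lay between -0.14 and 0.25, Cox8c between -0.0017 and 0.45, Ndufa11 between -0.31 and 0.081 and Ndufa4l2 between -0.23 and 0.43. Where an array was left out, the fits had fewer arrays and the lone array of a gate was assumed to vary like the others. The cause of the other changes was not tested.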

Other observations

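Probe sets that match a subunit gene and a second symbol were left out of the set, since their signal cannot be given to 1 gene, and their values are given here with no test. The 3 probe sets for Cox7c and Gm12338 differed from negative cells by -0.28 to -0.31 in low and by -0.29 to -0.36 in high cells. The 2 probe sets for Ndufb4 and Ndufb4b differed by -1.03 and -1.09 in low and by -1.06 and -1.03 in high cells. The 1 probe set for Ndufs5 and Ndufs5-ps differed by -0.27 in low and by -0.40 in high cells, where the probe set of Ndufs5 alone differed by -0.40 and -1.35.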
